A study of Mus musculus with 4 samples.

Results

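A set of 10 genes of glucose uptake and glycolysis was followed in cultures made from embryonic stem cell (ESC) lines of 2 genotypes. They were the rows named *Slc2a1*, *Slc2a3*, *Hk1*, *Hk2*, *Pfkp*, *Pfkl*, *Aldoa*, *Pgk1*, *Ldha* and *Ldhb*, chosen by name from the 24637 genes of the table, and all 10 were found. Messenger RNA was sequenced in 4 libraries, 2 labelled WT and 2 labelled *Taf4a*-/-. *Taf4a* encodes a subunit of TFIID, the general factor that starts RNA polymerase II transcription at promoters, and its null allele lacks internal exons. The lines came from blastocysts of crosses between *Taf4a*+/- mice and were kept on growth-arrested embryonic fibroblast feeders with LIF. To obtain cardiomyocytes, cells of both genotypes grew for 5 days as embryoid bodies in 20% fetal calf serum and then for 9 days on gelatin-coated plates. No other treatment separated the groups. The study used independent lines of each genotype, and the libraries hold whole mixed cultures, so in each result a smaller number of cells of one type and less RNA per cell cannot be told apart. The labels do not tie a library to a named line, and p-values measure only the spread between these 4 libraries.

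Glycolysis splits glucose into pyruvate and yields ATP without oxygen. Transporters bring glucose into the cell, hexokinase traps it as glucose-6-phosphate, phosphofructokinase commits it to breakdown, aldolase cleaves the sugar, phosphoglycerate kinase makes ATP, and lactate dehydrogenase interconverts pyruvate and lactate. Pluripotent stem cells rely heavily on this route, whereas cardiomyocytes draw most of their energy from oxidation in mitochondria. Many steps are shared between isozymes from separate genes, which differ in tissue and in kinetics.

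Among the 10 genes, *Ldhb* was higher in the libraries labelled *Taf4a*-/-, *Hk1*, *Aldoa* and *Pgk1* were lower, and the other 6 did not pass the test. *Hk1* changed most, to 36.4% of its WT mean. *Pgk1* was at 59.9% and *Aldoa* at 64.8% of the WT mean, whereas *Ldhb* was at 168%. All 10 passed the filter of a mean of at least 10 normalized counts. The calls are from limma on log2(normalized count + 1) over 16926 genes at a Benjamini-Hochberg adjusted p under 0.05, which called 11.3% of all genes tested higher and 17.3% lower in the libraries labelled *Taf4a*-/-. With quantile normalization the split over all genes was 2624 higher and 2460 lower, beside 1906 and 2928, and the calls among the 10 were the same 4. The median log2 fold change was -0.37 over the 10 genes and -0.01 over all genes tested. Values of the genotypes did not overlap for 8 of the 10 genes, 1 higher and 7 lower. Without any test, 34.5% of all genes had no overlap and a higher level, and 36.6% no overlap and a lower level, so most of these 10 could be apart without being called. With 2 libraries against 2, an exact permutation test on a single gene cannot go below p = 0.333.

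**Figure D1:**
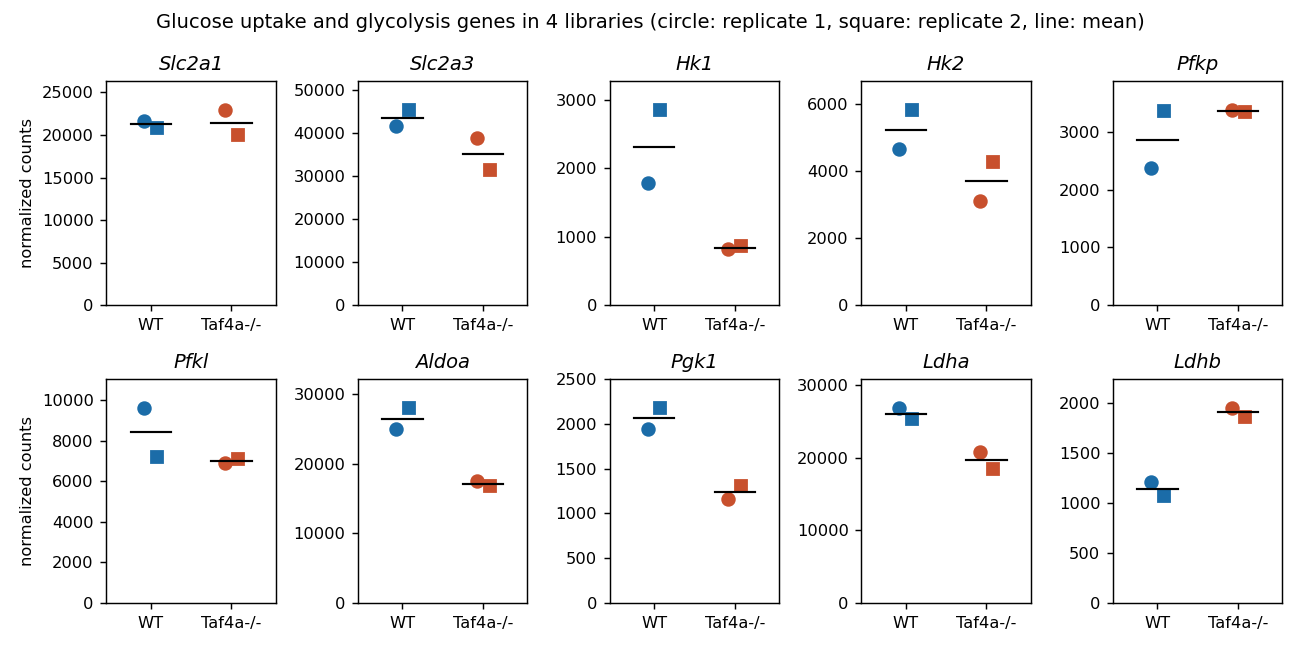
Normalized counts (y axis, from 0, one scale per gene) of the 10 genes in the WT libraries (blue) and the libraries labelled Taf4a-/- (red), with circles for replicate 1, squares for replicate 2 and a line at each mean. Both red points lie below both blue points for 7 genes and above them for Ldhb, while the genotypes overlap for Slc2a1 and Pfkp.

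**Figure D2:**
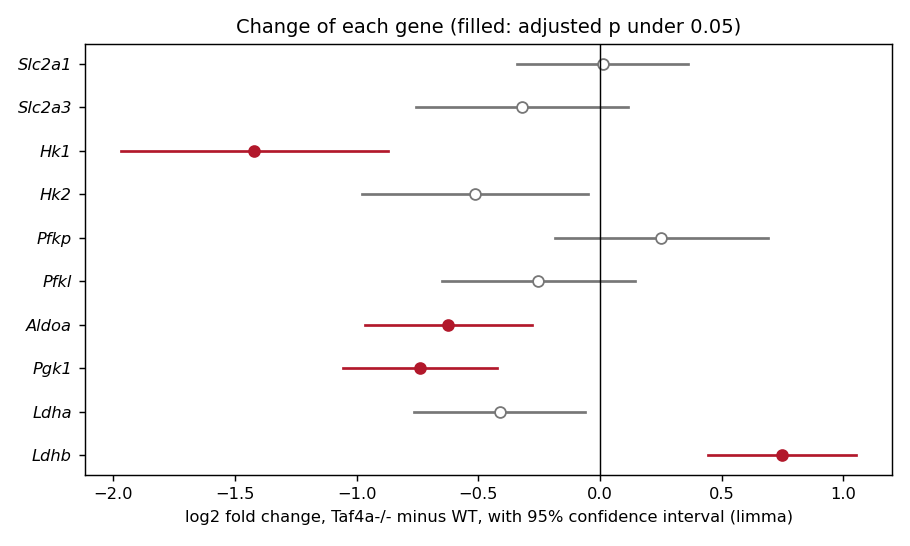
Log2 fold change (x axis, libraries labelled Taf4a-/- minus WT) of each gene with its unadjusted 95% confidence interval from limma. Filled red points passed an adjusted p under 0.05: Hk1, Aldoa and Pgk1 to the left of 0 and Ldhb to the right.

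The 4 libraries held 21732746 to 27733034 reads on genes, recovered from the normalized values, and the fewest reads of one of the 10 genes in a library were 784, for *Hk1*. The total count of the targeted gene was not lower where the labels give a null allele. *Taf4a* stood at 889 and 678 normalized counts in the WT libraries and at 1722 and 1799 in those labelled *Taf4a*-/-, a log2 change of 1.18 ± 0.16 (SE, limma adjusted p = 0.00569). The value is a count over the whole gene, which cannot show whether the deleted exons were absent, so it does not check the allele, and the genotype is given here as labelled. The libraries also differed in sex-linked genes, which were chosen after their values were seen. *Eif2s3y*, carried on the Y chromosome, stood at 1688 in WT replicate 1, 0 in WT replicate 2, 309 in *Taf4a*-/- replicate 1 and 0 in *Taf4a*-/- replicate 2. *Xist*, the RNA that coats the inactive X chromosome, stood at 6.14, 7.27, 217 and 6470.0 in the same order.

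Cell type markers moved with genotype. Of 14 cardiomyocyte markers tested, 13 were lower in the libraries labelled *Taf4a*-/-, and their summed level was 25847 to 28731 in WT and 2516 to 2749 in those libraries, with *Pln* at 0 in 1 of them. *Actc1*, the most abundant, stood at 7519, 6901, 227 and 399. All 10 macrophage markers (sums of 11097 to 13146 against 180.1 to 227, with *C1qa* at 0 in both) and all 10 visceral endoderm and liver markers (67306 to 83231 against 526 to 623, with *Alb* and *Serpina1a* at 0 in both) were lower, as were 7 of 8 fibroblast markers (429319 to 596621 against 48130.3 to 60341). Stem cell markers went the other way, with 11 of 14 higher and sums of 6677 to 12818 against 27505 to 29363. *Lin28a*, the most abundant of them, stood at 6432, 3342, 7358 and 6594 and was not called. None of 6 endothelial or 7 erythroid markers was called, and 1 of 6 neural markers was lower. The erythroid sum was 2107 to 5000 in WT, 2577 in *Taf4a*-/- replicate 1 and 16073 in replicate 2. The part of these markers in the changes of the 10 genes was not tested.

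The bases before the start are shown for the 3 genes that fell and the pair of lactate dehydrogenase genes. The sequences are the 250 bases before a start in RefSeq on GRCm38.p6, another build than that of the counts, written 5′ to 3′ on the strand of the gene. Capitals mark ACGTG or its reverse complement CACGT, a form of the core of the hypoxia-response element bound by HIF factors. ACGTG also lies on both strands within the E-box CACGTG. The core can also read GCGTG, which was neither marked nor counted.

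Hk1, chr10:62340422-62340671, minus strand: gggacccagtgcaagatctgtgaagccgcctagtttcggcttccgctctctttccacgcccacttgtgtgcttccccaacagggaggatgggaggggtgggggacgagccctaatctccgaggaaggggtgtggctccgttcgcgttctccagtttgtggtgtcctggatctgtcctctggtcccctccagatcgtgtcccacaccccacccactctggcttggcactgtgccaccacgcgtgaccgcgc
Aldoa, chr7:126799255-126799504, minus strand: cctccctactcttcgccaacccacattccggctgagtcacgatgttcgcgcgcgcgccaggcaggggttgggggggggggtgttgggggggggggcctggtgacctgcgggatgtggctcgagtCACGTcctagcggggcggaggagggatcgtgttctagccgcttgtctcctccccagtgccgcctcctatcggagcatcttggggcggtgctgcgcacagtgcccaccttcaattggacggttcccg
Pgk1, chrX:106186850-106187099, plus strand: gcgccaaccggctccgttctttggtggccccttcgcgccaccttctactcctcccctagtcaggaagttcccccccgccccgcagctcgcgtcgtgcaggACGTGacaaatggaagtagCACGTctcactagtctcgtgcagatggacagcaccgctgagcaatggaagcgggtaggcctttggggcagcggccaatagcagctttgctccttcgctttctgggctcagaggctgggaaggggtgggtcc
Ldha, chr7:46845554-46845803, plus strand: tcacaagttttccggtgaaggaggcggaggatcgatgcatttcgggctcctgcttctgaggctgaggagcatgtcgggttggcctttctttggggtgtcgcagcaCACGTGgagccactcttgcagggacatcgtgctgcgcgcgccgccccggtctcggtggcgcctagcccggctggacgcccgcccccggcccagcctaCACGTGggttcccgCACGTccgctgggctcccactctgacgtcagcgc
Ldhb, chr6:142507958-142508207, minus strand: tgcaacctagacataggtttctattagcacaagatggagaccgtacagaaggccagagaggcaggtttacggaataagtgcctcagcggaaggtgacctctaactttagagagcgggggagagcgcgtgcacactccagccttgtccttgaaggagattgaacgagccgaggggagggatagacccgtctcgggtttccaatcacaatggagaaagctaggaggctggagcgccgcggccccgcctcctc

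There were 13 such promoters for 9 of the 10 genes, since *Slc2a3* had no match in the promoter table. ACGTG or CACGT was in promoters of 5 of the 9 genes, *Slc2a1*, *Hk2*, *Aldoa*, *Pgk1* and *Ldha*, or 6 of the 13 promoters. It was in 16.6% of all 32851 promoters of that length. Of these 6, 2 are overlapping promoters of *Aldoa* that hold the same site. *Aldoa* and *Ldha* each had 1 other promoter without these letters, and those printed for them hold them. In *Ldha* they made 2 full E-boxes and a single match 34 bases before the start. *Pgk1* held them 150 and 131 bases before the start. Both *Hk1* promoters and that of *Ldhb* held no such match. Among the 4 genes called between genotypes, a match was present in a promoter of 2 that fell. It was absent from 1 that fell and from the 1 that rose. GCGTG, which was not counted, is present in the printed promoters of *Hk1* and *Ldhb*, so this split covers ACGTG only. The TATA box letters TATAAA or TTTATA were in 0 of the 13 promoters and in 12.4% of all promoters. The GC box GGGCGG or CCGCCC was in 7 of 13 against 32.7% of all, and CCAAT or ATTGG in 6 of 13 against 33.8%. GC content ranged from 49.6% to 69.6% over the 13, beside a median of 52.4% over all promoters. A match shows only that these letters are present.

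Glucose entry was measured by 2 transporter genes. *Slc2a1* encodes GLUT1, the widespread transporter of basal glucose uptake (NCBIM37 chromosome 4, 118781316 to 118809935, plus strand). Its normalized counts were 21670.5 and 20846 in WT and 22909 and 20005 in the libraries labelled *Taf4a*-/-. The WT values lay between the others, and the log2 change was 0.01 ± 0.14 with a 95% confidence interval of -0.34 to 0.36. *Slc2a3* encodes GLUT3, a high-affinity transporter known from neurons and early embryos (chromosome 6, 122677827 to 122751658, minus strand). It had the most counts of the 10, with 41732 and 45273 in WT against 38776 and 31319. The genotypes did not overlap, yet the log2 change of -0.32 ± 0.18 did not pass (limma adjusted p = 0.224).

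Per kilobase of exon, *Slc2a1* made up 54.9% ± 2.0 (SD, n = 2) of the class I transporters in WT against 60.6% ± 1.3 in the libraries labelled *Taf4a*-/-, and *Slc2a3* made up 44.2% ± 2.2 and 38.9% ± 1.3. Per kilobase of exon, the rest was *Slc2a2* and *Slc2a4*, transporters known from liver and from muscle and fat, at 0.260% and 0.670% in WT. In the exon union, 3.68% of *Slc2a1* bases were shared with *Gm12868* on the other strand, and since the library kit did not mark strand, reads of the pair cannot be told apart.

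The largest change of the 10 was that of *Hk1*, a hexokinase gene. It encodes the hexokinase of most adult tissues, which binds mitochondria (chromosome 10, 61731603 to 61842656, minus strand). It stood at 1781 and 2845 normalized counts in WT and at 815 and 867 in the libraries labelled *Taf4a*-/-. Both of the latter were below both WT values, and the WT libraries differed 1.60-fold from each other. The log2 change was -1.42 ± 0.22, with a confidence interval of -1.97 to -0.87 (limma adjusted p = 0.00860). *Hk1* stayed called without any 1 library, from -1.08 (adjusted p = 0.0356, without WT replicate 2) to -1.76 (adjusted p = 0.0144, without WT replicate 1). None of its longest coding transcript lay in exact runs of 50 nt or more found elsewhere in the genome, and 1.84% of its exon bases were shared with *2210417K05Rik* on the other strand.

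*Hk2* encodes the inducible hexokinase of muscle, heart, fat and embryonic cells (chromosome 6, 82675019 to 82724448, minus strand). Its values were 4662 and 5817 in WT against 3119 and 4265. They did not overlap, but the log2 change of -0.51 ± 0.19 did not pass over all genes (limma adjusted p = 0.0914, unadjusted interval -0.98 to -0.05). With a replicate block it did, at an adjusted p = 0.0428.

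The makeup of the hexokinase family shifted towards *Hk2*. Per kilobase of exon, *Hk2* was 66.4% and 61.9% of the family in the WT libraries and 82.6% and 86.6% in those labelled *Taf4a*-/-, while its own level was not higher. *Hk1* was 17.8% and 21.2% against 15.1% and 12.3%. *Hkdc1*, which encodes a hexokinase-domain protein, was 12.7% and 14.1% against 0.573% and 0.444%, and *Hk3* 2.73% and 2.46% against 0.0420% and 0. In normalized counts *Hkdc1* was 768 and 1143 in WT against 18.6 and 18.8. *Hk3*, known from blood cells, was 118 and 142 against 0.979 and 0, at least 41.7-fold lower taking 3 reads as the floor over the mean of the latter libraries. The genotypes were apart for the share of each of these 4 genes. No test was made on the shares.

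Phosphofructokinase genes did not pass the test. *Pfkp* encodes the platelet-type subunit, also found widely in embryonic and proliferating cells (chromosome 13, 6579014 to 6648023, minus strand). It stood at 2364 and 3356 in WT and at 3371 and 3340.05 in the libraries labelled *Taf4a*-/-, so 1 WT library lay between them and the other far below. Its log2 change was 0.25 ± 0.18 (limma adjusted p = 0.325). Without WT replicate 2 it was 0.50 and passed (adjusted p = 0.0455), and without WT replicate 1 it was 0.00 (adjusted p = 0.999). *Pfkl*, the liver-type subunit (chromosome 10, 77449692 to 77472828, minus strand), stood at 9624 and 7220.3 against 6892 and 7096. Here too WT replicate 1 stood alone, and the change was -0.25 ± 0.16 (limma adjusted p = 0.281), -0.05 without that library (adjusted p = 0.683) and -0.46 without WT replicate 2 (adjusted p = 0.0518). *Pfkl* held 66.9% of the family per kilobase in WT against 64.3% in the libraries labelled *Taf4a*-/-, *Pfkm*, the muscle type, 22.2% and 21.3%, and *Pfkp* 10.9% ± 3.8 and 14.4% ± 0.3. Of the *Pfkp* exon bases, 3.96% were shared with *Pitrm1* on the other strand.

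**Figure D3:**
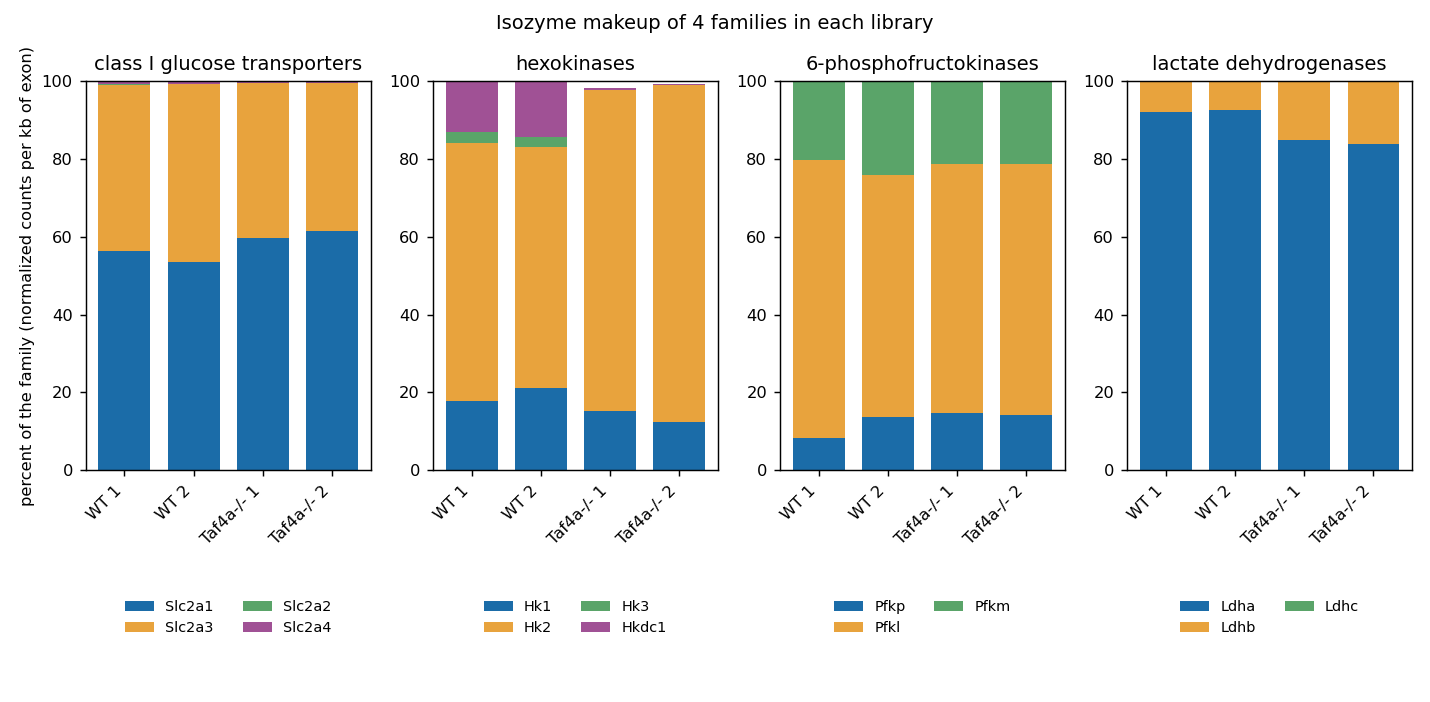
Share of each isozyme in its family (y axis, percent of the summed normalized counts per kilobase of exon, from 0) in the 2 WT libraries and the 2 libraries labelled Taf4a-/-, for glucose transporters, hexokinases, phosphofructokinases and lactate dehydrogenases, with the genes named in each legend. Hk2 widens from 64.2% to 84.6% of the hexokinases and Ldhb from 7.62% to 15.5% of the lactate dehydrogenases, as means over 2 libraries.

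Further down the pathway, *Aldoa* and *Pgk1* were both lower. *Aldoa* encodes the main aldolase, abundant in muscle and in embryos (chromosome 7, 133938748 to 133944265, minus strand). Its counts were 24913.5 and 27976 in WT and 17427 and 16846 in the libraries labelled *Taf4a*-/-. The lowest WT value was above the highest of the others, and the log2 change was -0.62 ± 0.14 (limma adjusted p = 0.0240). The call was lost without WT replicate 2 (-0.54, adjusted p = 0.0513), without *Taf4a*-/- replicate 1 (-0.65, adjusted p = 0.188), without *Taf4a*-/- replicate 2 (-0.60, adjusted p = 0.226) and with a replicate block (adjusted p = 0.0512). *Aldoa* made up 96.7% of aldolase per kilobase in WT against 97.8% in the libraries labelled *Taf4a*-/-, and *Aldoc* 2.50% ± 0.53 and 2.12% ± 0.35.

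*Pgk1* encodes phosphoglycerate kinase, the first ATP-yielding step, and lies on the X chromosome (103382439 to 103399038, plus strand). It stood at 1945 and 2176 in WT against 1161 and 1306, without overlap. The log2 change was -0.74 ± 0.13 (limma adjusted p = 0.0118). *Pgk1* was no longer called without WT replicate 2 (-0.66) or without *Taf4a*-/- replicate 1 (-0.65). Without *Taf4a*-/- replicate 2, the library with the most *Xist*, the change was -0.82. The remaining library labelled *Taf4a*-/- also held more *Xist* than either WT library, and the part of the X chromosome in this change was not tested.

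Of the lactate dehydrogenase genes, *Ldhb* rose and *Ldha* did not pass the test. *Ldha* encodes the subunit of the muscle-type enzyme (chromosome 7, 54096845 to 54110997, plus strand). It stood at 26876 and 25349.6 in WT against 20817 and 18496, apart but not called (-0.41 ± 0.14, limma adjusted p = 0.0792, unadjusted interval -0.76 to -0.06). *Ldhb* encodes the subunit of the heart-type enzyme (chromosome 6, 142438769 to 142456477, minus strand). It went from 1204 and 1066 in WT to 1947 and 1857 in the libraries labelled *Taf4a*-/-. Every value of the latter was above both WT values, with a log2 change of 0.75 ± 0.12 and an interval of 0.44 to 1.05 (limma adjusted p = 0.0101). Without *Taf4a*-/- replicate 1 it was 0.71 and not called (adjusted p = 0.0623), and without each of the other libraries it stayed called.

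The ratio of *Ldha* to *Ldhb* normalized counts was 22.3 and 23.8 in the WT libraries and 10.7 and 9.96 in those labelled *Taf4a*-/-. In each library *Ldha* remained the larger. Per kilobase of exon, *Ldhb* was 7.84% and 7.40% of the family in WT and 15.1% and 16.0% in the others. *Ldhc*, the testis subunit, was at 0 in both WT libraries and at 4.89 and 7.74 normalized counts in those labelled *Taf4a*-/-, and fell under the filter.

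The genome holds near-identical copies of several of these genes, and how the counting treated reads that fit more than 1 place is not given in the sources used here. Exact runs of 50 nt or more found elsewhere in NCBIM37 covered 95.7% of the longest coding transcript of *Pgk1* (4 copies), 77.5% of *Ldhb* (1 copy), 67.1% of *Ldha* (11 copies) and 16.3% of *Aldoa* (3 copies). They covered 1.53% of *Pfkl*, a short stretch found at 97 places, and none of *Slc2a1*, *Slc2a3*, *Hk1*, *Hk2* and *Pfkp*. The levels of *Pgk1*, *Ldhb* and *Ldha* are therefore uncertain, since reads from the copies and the genes could be split or left out. *Aldoart1*, a retrocopy of *Aldoa* with its own row, stood at 1498, 1600, 1046 and 947, lower where *Aldoa* was lower. The *Ldha* pseudogene *Gm11814* stood at 224, 188, 176 and 168, and *Gm13315* at 82.4, 76.9, 41.1 and 50.9. No row lay at the copies of *Pgk1* or *Ldhb*.

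**Figure D4:**
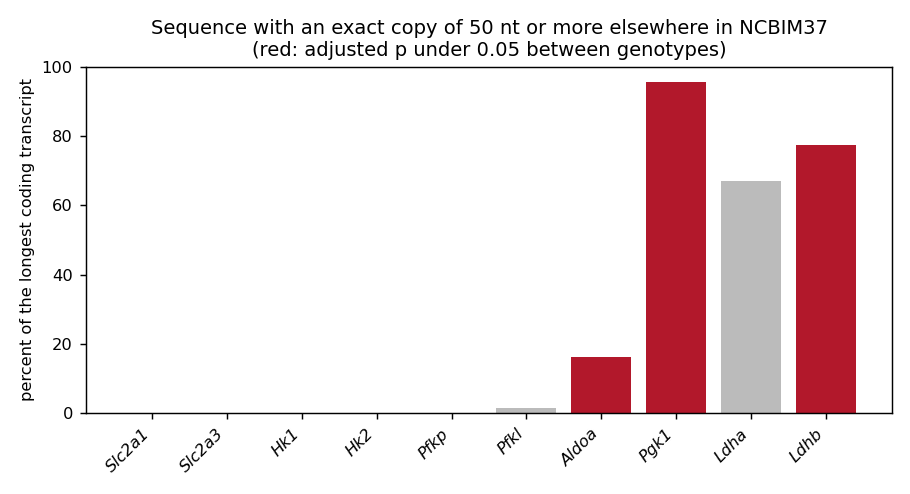
Percent of each gene's longest coding transcript (y axis, from 0) lying in exact runs of 50 nt or more that occur elsewhere in NCBIM37, with genes called between genotypes in red. Hk1 is the called gene with no such run, whereas Pgk1 is covered to 95.7%.

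Per kilobase of exon, the mean levels over the 4 libraries ran from 7912 normalized counts for *Aldoa*, 7674 for *Ldha* and 7486 for *Slc2a1*, ranked 64, 67 and 74 of all genes, through 5421 for *Slc2a3* and 1754 for *Pfkl*, to 967 for *Ldhb*, 748 for *Hk2*, 734 for *Pgk1*, 331 for *Pfkp* and 185 for *Hk1*. The order differed by genotype. *Aldoa*, *Ldha* and *Slc2a1* averaged 9602, 8757 and 7451 in WT but 6222, 6592 and 7521 in the libraries labelled *Taf4a*-/-, and *Pgk1*, *Hk2* and *Ldhb* averaged 918, 878 and 723 against 549.7, 618 and 1211. Over all 4 libraries the ranges overlapped within each of these groups of 3 genes. The order also depends on the length used. With the longest coding transcript, *Slc2a3* stood above *Slc2a1* in each library. Per kilobase of the longest transcript, *Pgk1* stood at 636 and 716 in the libraries labelled *Taf4a*-/- and *Hk2* at 566 and 774. The copies of *Pgk1*, *Ldhb* and *Ldha* leave the places of these genes uncertain. Summed over the 10, the normalized counts were 0.563% and 0.557% of the WT libraries and 0.494% and 0.439% of those labelled *Taf4a*-/-.

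Genes with the profile most like that of *Ldhb*, by Euclidean distance between centred log2 values over the 4 libraries, were *Dhx16* (0.0295), *Ulk2* (0.0353) and *Fbrsl1* (0.0456). Those nearest to *Hk1* were *Ltb4r2* (0.0561), *Upk1a* (0.0673) and *Pnck* (0.101), which stood at 5.87 to 22.9, 41.1 to 154 and 41.1 to 137 normalized counts. The distances rest on 4 libraries.

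The other genes, in 7 lists of glucose metabolism and 1 of the hypoxia response, counted 99 in the table and 91 tested. Of these, 5 were higher (5.49%) and 28 lower (30.8%), beside 11.3% and 17.3% of all genes, with a median log2 change of -0.36. Without the hypoxia-response genes, 4 were higher and 21 lower of 75, with a median of -0.23. *Hk3* and *Slc2a2* were at the floor of 3 reads in the libraries labelled *Taf4a*-/-. Set at their bounds, both stayed below the medians of their lists, so these medians could not change.

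Among 20 other glycolysis enzymes tested, 1 was higher and 7 were lower, with a median of -0.04. *Gapdh* was the one that rose, by 0.87, but its row held only 143 to 269 normalized counts and 86.1% of its transcript lay in exact runs at 134 other places. The largest falls were those of *Hk3* and *Hkdc1* (-5.57). *Aldoc* (-0.87), *Pgam2*, the muscle phosphoglycerate mutase (-1.79), *Eno2*, the neuronal enolase (-1.50) and *Pklr*, the liver pyruvate kinase (-2.46), were also lower. The other main forms, *Eno1*, *Pgam1* and *Pkm2*, were not called. The row named *Pkm2* counts the whole gene and does not separate its transcripts. Per kilobase, *Pgam2* went from 47.5% ± 12.3 to 20.6% ± 1.5 of its family and *Eno2* from 9.16% ± 5.35 to 2.95% ± 0.03. These shares depend on the length used, since 94.7% of the *Pgam1* transcript and 85.0% of that of *Eno1* lie in exact runs elsewhere. Per unique base of the longest coding transcript, a choice made after seeing the data, *Pgam2* held 4.80% and 1.35% and *Eno2* 1.44% and 0.420%.

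Of 9 other glucose transporters tested, 1 was higher and 3 lower, with a median of -1.09. *Slc2a5*, the fructose transporter, rose from 10.5 and 8.31 to 40.1 and 26.5 normalized counts. *Slc2a2*, GLUT2, went from 153 and 40.5 to 0 and 2.21, at least 31.0-fold lower with the same floor and at least 13.0-fold without WT replicate 1. *Slc2a12* (-1.52) and *Slc2a10* (-1.28) were lower too. These 4 rows held at most 225 normalized counts in a library, far under *Slc2a1* and *Slc2a3*.

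Lactate and pyruvate carriers had 4 of 8 lower and 0 higher, with a median of -0.66. They were *Slc16a7*, MCT2 (-3.04), *Slc16a1*, MCT1 (-0.70), and *Emb* (-1.31) and *Bsg* (-1.14), which encode the membrane partners of these carriers. *Emb* stood at 12828 and 10698 in WT against 5791 and 3839.96, and *Bsg* at 21333 and 41102 against 13841 and 12991. Neither overlapped between genotypes, though *Bsg* varied widely between the WT libraries.

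Regulators of glycolytic flux had 1 of 15 higher and 2 lower. *9630033F20Rik*, the gene of TIGAR, a phosphatase that lowers fructose-2,6-bisphosphate, rose by 0.60, and *Ppp1r3c*, a glycogen-targeting phosphatase subunit (-3.01), and *Arrdc4*, an arrestin-domain relative of *Txnip* (-1.01), were lower. In the pyruvate dehydrogenase list 1 of 12 was higher and 3 were lower, namely *Pdpr* (0.60), *Pdp1* (-1.08), *Pdk2* (-0.96) and *Pdha1* (-0.63), which encode a phosphatase regulator, a phosphatase that activates the complex, a kinase that inhibits it and a subunit of the complex itself. Gluconeogenesis had 3 genes tested and 1 lower, *Pck2* (-1.35), and the pentose phosphate pathway 8 tested and 1 lower, *H6pd* (-0.53).

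Hypoxia-response genes outside glycolysis had 1 of 16 higher and 7 lower, with a median of -1.03. *P4ha2* (-2.07) and *P4ha1* (-1.59), which encode collagen prolyl hydroxylases, and *Bnip3*, a mitochondrial receptor of autophagy (-1.50), were the largest falls among called genes, and *Kdm3a*, a histone demethylase, rose by 0.38 (limma adjusted p = 0.0496). Values within WT differed here. The summed list stood at 40998 in WT replicate 1 and 72460.0 in WT replicate 2, and at 30960.2 and 30178 in the libraries labelled *Taf4a*-/-. Its median log2 difference between the WT replicates was 0.82, whereas that of the 10 glycolysis genes was 0.14. The part of the fibroblast markers in this list was not tested.

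**Figure D5:**
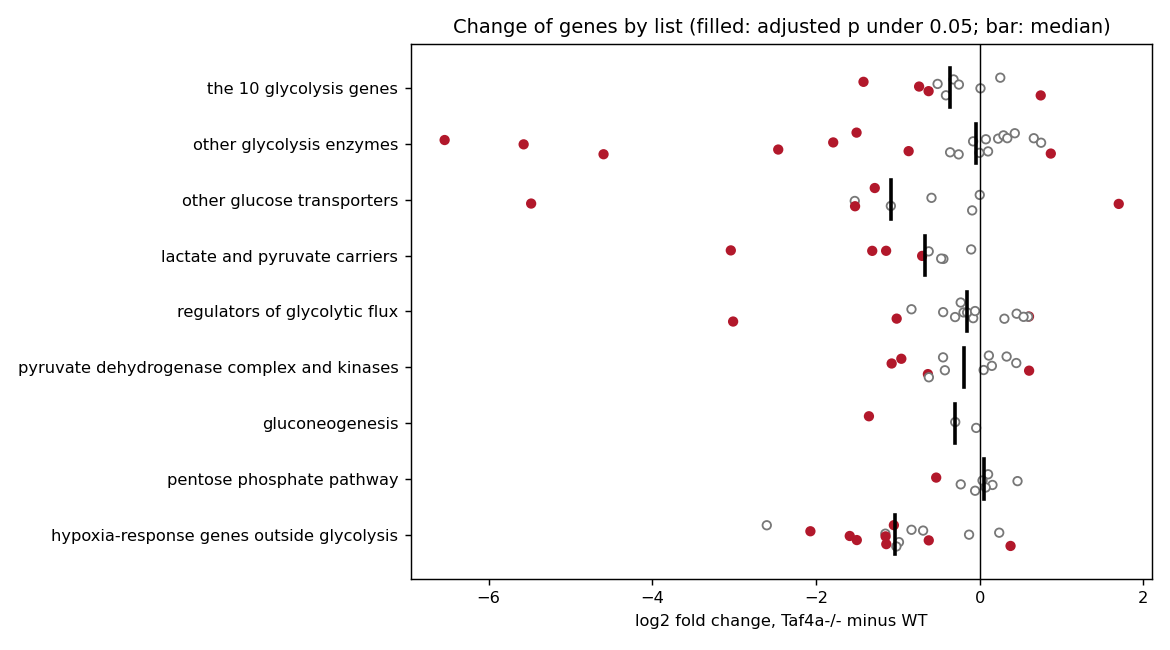
Log2 fold change (x axis, libraries labelled Taf4a-/- minus WT) of each tested gene in the 10 glycolysis genes, 7 lists of glucose metabolism and 1 of the hypoxia response (rows), with filled points for an adjusted p under 0.05 and a bar at the median of each row. The 10 genes lie within -1.42 to 0.75, and other lists reach -6.54, a fitted value for Hk3, which is at the floor in the libraries labelled Taf4a-/-.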

How the data were processed

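Messenger RNA of 2 WT and 2 *Taf4a*-/- cultures was sequenced from poly(A)-selected libraries that did not mark strand. Per the submitters' processing notes the tools were CASAVA 1.8, TopHat 1.3.3, HTSeq 0.5.3p1 and DESeq, on mm9 (NCBIM37). The authors deposited other units than raw counts, namely normalized counts, each read count divided by 1 size factor per library. Dividing by the value of 1 read gave whole reads for 100% of values (tolerance 0.1). All 24637 identifiers were found in GENCODE M1, and 99.4% had the same symbol.

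Genes whose mean over the libraries reached 10 (16926) entered limma 3.58.1 under R 4.3.3, by lmFit and eBayes with a variance trend and 4.17 prior degrees of freedom, as log2(value + 1), a scale that understates the change of low genes. Levels of different genes were compared per kilobase of the exon union. Some genes of the lists and families are counted in totals and not reported here. Copies were searched with BLAST (blastn 2.17.0) for exact runs of at least 50 nt. Plots used matplotlib 3.10.9 and Python 3.11.15. On simulated reads for this comparison, with 16923 genes tested, the fit recovered 96 of 98 genes changed by 1 log2 unit. It recovered 102 of 102 changed by 2, with 6 false calls among 204. The deposited libraries gave far more calls, 1906 higher and 2928 lower. The simulation gave all genes the same spread between libraries, the median over tested genes, and changed only genes well above the filter. Genes of the deposited libraries differ in spread. Whether the recovery and the share of false calls hold for those libraries was not tested.

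Same-numbered libraries showed a correlation of deviations of 0.01, and no label pairs them. The genes and lists were chosen with earlier results of these data known. Outside the 10 genes, *Taf4a* and their isozymes, the text names the 3 largest rises and falls without overlap among called genes of each list. It also names the most abundant cardiomyocyte and stem cell markers, and the 3 nearest profiles of the called genes with the largest rise and fall. *Aldoc*, *Pgam2*, *Eno2*, *Pklr*, *Eno1*, *Pgam1* and *Pkm2* come from the isozyme families, and *Xist*, *Eif2s3y*, *Slc16a1*, *Pln*, *C1qa*, *Alb*, *Serpina1a* and the rows at copies were chosen after their values were seen. Counting errors and floors cover counting only.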

Additional observations from a re-analysis of the deposited data

How the results depend on the processing

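*Hk1* was lower in all 9 fixed alternatives and all 4 that left out a library. Genes called lower among the 10 numbered 1 (*Hk1*) without the variance trend and 1 (*Hk1*) at an adjusted p under 0.01, and 1 to 3 when a library was left out. Genes called higher numbered 0 at 0.01 and 0 to 2 without a library. Over all genes, 856 higher and 1741 lower were called without the trend and 331 and 1119 at 0.01, with 624 (without *Taf4a*-/- replicate 2) to 2476 and 1222 (without WT replicate 2) to 3038 without a library. The pathway lists held 18, 11 and 19 (without WT replicate 2) to 44 calls in these settings, against 33. A replicate block called 3 of the 10 lower, with *Hk2* gained and *Aldoa* lost, 1 higher, and 1536 and 2657 of all genes, and it changed no other call among the 10. Quantile normalization called 2624 higher and 2460 lower, moved the median of all genes to 0.11 and that of the 10 to -0.26, and gave the same 4 calls. Limma's voom on the recovered reads, chosen after seeing the data, also gave these 4. No called gene changed sign, whereas *Slc2a1*, not called, did in 2 alternatives and *Pfkp*, not called, in 1.

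Isozyme shares depended on the length used. With the longest transcript, *Hk1* held 29.5% of hexokinase in WT and 22.6% in *Taf4a*-/-, and *Hk2* held 53.0% and 75.7%. The shares of both were the same with only unique bases, a choice made after seeing the data. *Pfkp* held 17.6% and 22.8% with the longest transcript and 19.2% and 24.8% with unique bases. *Slc2a1* held 59.3% in *Taf4a*-/- with the longest transcript and 42.3% and 48.1% with unique bases, and *Slc2a3* then held more, 57.0% and 51.5%. No base of the coding transcripts of *Pfkp*, *Slc2a1* and *Slc2a3* was shared. For these 3 genes the unique bases are therefore the whole longest coding transcript. *Ldha* held 94.4% and 88.4% with the longest transcript. Without a library the WT and *Taf4a*-/- shares ranged from 17.8% to 21.2% and 12.3% to 15.1% for *Hk1*, 8.21% to 13.6% and 14.2% to 14.7% for *Pfkp*, 53.5% to 56.3% and 59.7% to 61.5% for *Slc2a1*, and 92.2% to 92.6% and 83.9% to 84.9% for *Ldha*. edgeR and DESeq2, planned as alternatives, were not run, and voom was the one test on recovered reads. With 2 libraries per genotype, a missed threshold does not show that a gene did not differ.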
